A study of Mus musculus with 14 samples.

Results

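miR-221 and miR-222 are a pair of small regulatory RNAs whose genes lie side by side on the mouse X chromosome. They were followed here as the 2 assays named mmu-miR-221 and mmu-miR-222 among the 375 microRNA assays of a TaqMan rodent microRNA card, a plate on which every well measures a single small RNA by real-time PCR. The members were chosen by name alone, and both were detected, with wells passed by the software, on 14 of 14 arrays. The arrays came from a mouse model of heart transplantation, and the mice were 8 to 10 weeks old. Syngeneic grafts were C57BL/6 hearts placed heterotopically in C57BL/6 recipients, and allogeneic grafts were BALB/c hearts in C57BL/6 recipients, which the labels record as rejected. Whole hearts were taken on day 7 (3 syngeneic and 3 allogeneic arrays) and graft-infiltrating lymphocytes (GIL), which are isolated out of the graft, on day 5 (3 and 3 arrays). One array held hearts of normal BALB/c mice, the donor strain of the allogeneic grafts. Another held peripheral blood mononuclear cells (PBMC) from unoperated mice of the recipient strain, C57BL/6. Each array carried the pooled RNA of 3 animals (100 ng of each), so n counts pools. Graft type and strain of the heart go together in this design and cannot be told apart.

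A microRNA loads into an Argonaute protein and lowers the output of messenger RNAs that pair with its seed, bases 2 to 8. miR-221 and miR-222 are cut from one primary transcript and share their seed. Among their best-known targets are Cdkn1b, which encodes the cell-cycle inhibitor p27, and Kit, the receptor for stem cell factor. In the vessel wall the pair is known to promote growth of smooth muscle cells and to restrain endothelial cells, and in the marrow it falls as red cell precursors mature. The card's names carry no arm. At the time of such cards the bare names stood for the 3p strands, whose RefSeq sequences (GRCm38.p6, 5′ to 3′, seed in capitals) are shown because the shared seed is what makes the pair a family.

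mmu-miR-221-3p: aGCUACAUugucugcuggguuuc
mmu-miR-222-3p: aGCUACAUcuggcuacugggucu
mmu-miR-1928: aGCUACAUugccagcuc

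The strands of the pair are 23 bases long, are identical from base 1 through base 8, and share 11 of 23 positions when aligned at base 1 without gaps. Of the 1679 mature mouse sequences in the table, 3 hold this seed, the pair and miR-1928, which was not on the card. The miR-221 strand lies at chrX:19146307-19146329 and the miR-222 strand at chrX:19146901-19146923, both on the minus strand. The hairpins are shown with the 3p strand in capitals, since they place both mature RNAs in the same arm of their precursors.

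Mir221 hairpin: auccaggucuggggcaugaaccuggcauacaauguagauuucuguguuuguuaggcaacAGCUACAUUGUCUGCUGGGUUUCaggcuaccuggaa
Mir222 hairpin: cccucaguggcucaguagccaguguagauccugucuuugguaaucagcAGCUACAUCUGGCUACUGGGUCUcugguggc

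The Mir221 hairpin (chrX:19146294-19146388) and the Mir222 hairpin (chrX:19146893-19146971) are separated by 504 bases and span 678 bases together. The nearest other genes in that table were the lncRNA Gm14636, 9499 bases away on the side of the higher coordinates, and the pseudogene Gm5383, 203059 bases away on the other side.

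Of the microRNA assays, 228 to 260 were detected on a heart array and 161 to 221 on a GIL or PBMC array. Allogeneic GIL pool 3 stood apart, with 161 detected and a mean threshold cycle (Ct) of 27.95 over the reference microRNAs, where the other 6 arrays of its table had 23.2 to 25.8. A lower Ct is a higher amount, and 1 cycle is about 1 log2 unit. Levels below are in log2 units, the Ct turned in sign and set relative to the mean of the assays that were above the detection limit on all 7 arrays of their table (210 in hearts, 137 in GIL and PBMC). Differences were tested with limma. A difference counts as called when its p, adjusted by Benjamini-Hochberg across every assay tested, was under 0.05. Whether fewer cells of a type or less RNA per cell lies behind a difference cannot be told apart in such bulk samples.

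In whole hearts both members were higher after allogeneic than after syngeneic transplantation. The level of miR-221 was 2.52, 2.26 and 1.96 in allogeneic pools 1, 2 and 3, 1.53, 0.94 and 0.81 in the syngeneic pools, and 0.90 in normal hearts. The level of miR-222 was 5.57, 4.82 and 5.55 in the allogeneic pools, 3.71, 4.34 and 4.22 in the syngeneic pools, and 3.27 in normal hearts. For both, every allogeneic pool lay above every syngeneic pool and above the normal array. miR-221 was higher by 1.15 ± 0.29 log2 units (SE, n = 3 pools per group, 95% interval 0.47 to 1.84, 2.23-fold, limma adjusted p = 0.0245). miR-222 was higher by 1.22 ± 0.31 (0.48 to 1.96, 2.33-fold, limma adjusted p = 0.0253). Both members were thus called higher, as were 17.2% of the 238 assays tested (32.4% were called in either direction), and non-overlapping values with the allogeneic pools on top occurred in 26.5%. By size the pair ranked 35th (miR-222) and 39th (miR-221) among the 121 assays with a positive difference, and the median over all assays was 0.02.

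The calls in hearts, though not the size of the differences, depended on single arrays. The difference of miR-221 stayed between 1.02 and 1.37 when any single pool was left out, but it was not called without syngeneic pool 2 (1.08, limma adjusted p = 0.0871), syngeneic pool 3 (1.02, 0.0844) or allogeneic pool 1 (1.02, 0.0829). That of miR-222 stayed between 1.03 and 1.48 and was called only without allogeneic pool 2 (1.48, 0.0118). Without syngeneic pool 1, 2 or 3 it was 1.03, 1.35 and 1.30 (adjusted p = 0.0712, 0.0599 and 0.0706), and without allogeneic pool 1 or 3 it was 1.09 and 1.13 (0.0920 and 0.0657). On the 2 run days that held an allogeneic and a syngeneic array, miR-221 differed by 0.99 and 1.02 and miR-222 by 1.86 and 1.21. Run day entered as a fixed block left 1 residual degree of freedom and gave differences of 1.00 and 1.54 (adjusted p = 0.0875 for miR-221 and 0.0769 for miR-222). Scaled to the small nuclear RNA MammU6 they were 1.04 and 1.10 (adjusted p = 0.265 and 0.181), and miR-221 scaled to the median reference assay was 0.90 (0.0676). Neither was called when all 375 assays were tested without a filter (adjusted p = 0.0635 and 0.0643).

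**Figure D1:**
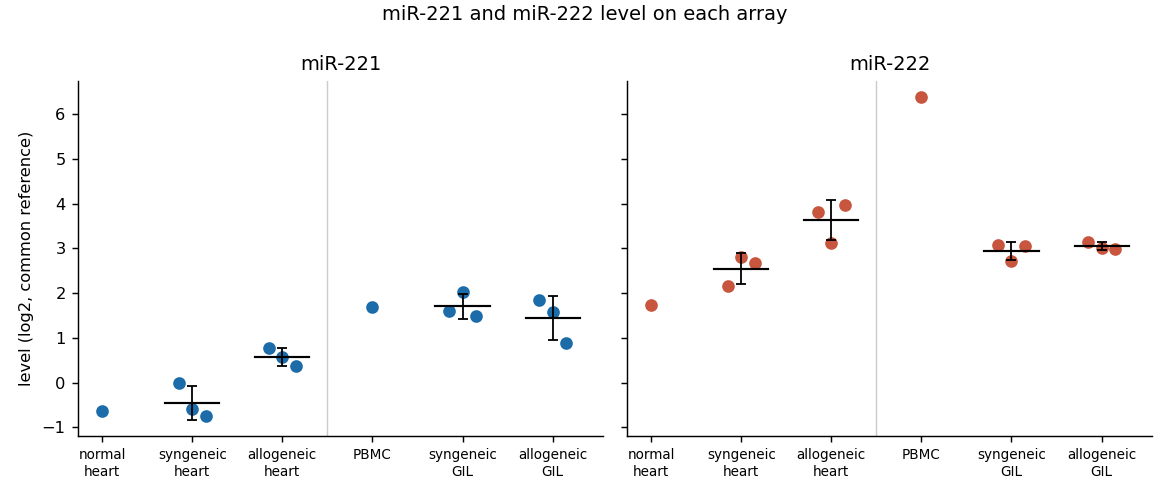
Level of miR-221 (left) and miR-222 (right) on each of the 14 arrays, in log2 units relative to the 133 microRNA assays detected on all arrays, with 1 point per array, a bar at the group mean and whiskers of 1 SD where n = 3. In hearts both members step up from syngeneic to allogeneic grafts, whereas miR-222 on the PBMC array, at 6.38, stands above its other arrays and miR-221 on that array, at 1.68, lies among the GIL values.

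Against the normal hearts, the 2 kinds of graft shared a single normal array, which was assumed to vary like the others. That array held BALB/c hearts, the strain of the allogeneic grafts. The syngeneic grafts were of the other strain, so strain and transplantation cannot be told apart in their comparison with normal hearts. The normal array was also run on a day of its own, so run day and transplantation cannot be told apart in either comparison. In syngeneic hearts miR-221 differed from normal by 0.19 (95% interval -0.78 to 1.16, limma adjusted p = 0.759) and miR-222 by 0.81 (-0.24 to 1.87, 0.212), and neither was called, where 11.6% of 242 assays were called higher. The intervals leave room for a change of either sign in both. In allogeneic hearts miR-221 was higher than normal by 1.35 ± 0.40 (2.54-fold, limma adjusted p = 0.0308) and miR-222 by 2.04 ± 0.44 (4.10-fold, 0.0105). Of 241 assays, 26.1% were called higher and 42.3% had all allogeneic pools above the normal array. The call of miR-222 held without any single pool, whereas miR-221 was not called without syngeneic pool 2 (1.35, adjusted p = 0.0542) or allogeneic pool 1 (1.21, 0.0699), when scaled to MammU6 (1.57, 0.181) or to the median (1.14, 0.0692), or without the detection filter (1.35, 0.0708). In the authors' deposited table of relative quantities, which set normal hearts to 1 and scale to snoRNA202, miR-221 was 1.24 to 2.28 in syngeneic and 3.70 to 3.94 in allogeneic pools. There miR-222 was 1.99 to 2.66 and 4.37 to 9.17. Under that scaling the median of all assays in allogeneic minus syngeneic hearts shifted by 0.15, and the share without overlap was not counted.

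Lists of other microRNAs, chosen with earlier results of these data known, are given for the same heart grafts as counts of assays called. Of all 238 assays tested, 41 were called higher (17.2%) and 36 lower, and each count below is to be read beside these. Of 9 microRNAs of activated T cells, 4 rose and 0 fell (median 1.10), among them miR-96 (3.40), miR-182 (2.64) and miR-21 (1.55). Of 11 assays of the miR-17-92 cluster and its paralogues, which proliferating cells make, 3 rose and 0 fell (median 0.63), namely miR-106b (1.41), miR-18a (1.28) and miR-25 (1.26). Of 6 haematopoietic microRNAs 3 rose (median 0.99), miR-451 of red cells by 3.99, and miR-142-3p and miR-142-5p, made across blood cells, by 1.64 and 1.02. miR-486, also of red cells, was at -0.16 and miR-150 at -0.49, and neither was called (limma adjusted p = 0.608 and 0.124). In the vascular wall list 3 of 6 fell and 1 rose (median -0.91), with the endothelial miR-126-3p at -1.64 and the smooth muscle miR-145 at -1.03. The assay that rose was miR-10a (1.00, limma adjusted p = 0.0431). Of 6 cardiac muscle microRNAs 5 fell (median -1.60). The sign of these 5 medians was the same under 7 scalings. Both members therefore had the sign of the medians of the blood cell and activation lists. That positive sign was shared by 121 of the 238 assays tested, so it does not set the pair apart. The sign of both members was opposite to that of miR-126-3p, miR-126-5p, miR-143, miR-145 and the heart muscle assays, but the same as that of miR-10a. The cell type markers are members of these same lists and are given as summed levels by group. The log2 summed level of 4 leukocyte markers was 7.75 to 8.16 in allogeneic, 7.04 to 7.48 in syngeneic and 6.63 in normal hearts, and that of 6 cardiac markers was 9.13 to 9.47, 10.5 to 11.3 and 12.2. That of 2 endothelial markers was 6.78 to 7.39, 8.55 to 9.001 and 10.03. The part of these cell types in the rise of the pair was not tested.

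Among infiltrating lymphocytes neither member was called different between graft types. The level of miR-221 was 1.87, 1.61 and 0.91 in allogeneic GIL pools 1, 2 and 3, 1.64, 2.06 and 1.53 in the syngeneic pools and 1.72 on the PBMC array. The level of miR-222 was 3.16, 3.02 and 3.01 in allogeneic GIL, 3.10, 2.74 and 3.09 in syngeneic GIL and 6.41 on the PBMC array. The graft types overlapped for both members, and the lowest miR-221 value belonged to allogeneic pool 3, the array that stood apart. Between allogeneic and syngeneic GIL, miR-221 differed by -0.28 ± 0.33 (95% interval -1.09 to 0.53, limma adjusted p = 0.538) and by 0.09 without allogeneic pool 3. miR-222 differed by 0.09 ± 0.22 (-0.45 to 0.62, limma adjusted p = 0.768). Of 201 assays tested, 36.3% were called in either direction. No run day held both syngeneic and allogeneic GIL arrays, so run day and graft type cannot be told apart here. The sign of miR-221 depended on the scaling, since it was 0.54 relative to MammU6 and 0.61 relative to snoRNA202. In the authors' deposited table miR-222, with PBMC at 1, was 0.0990 to 0.162 in syngeneic and 0.189 to 0.381 in allogeneic GIL. These do not overlap, as was so with allogeneic GIL on top for 43.3% of the 201 assays under that scaling, whose shift of the median assay was 0.89. Scaled to snoRNA202 the difference of miR-222 was 0.98 (limma adjusted p = 0.130).

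The members' allogeneic differences in hearts and in GIL were also set against each other in a fit of all 14 arrays with the 133 microRNA assays detected on every one as the reference. The heart difference exceeded the GIL difference by 1.28 ± 0.43 for miR-221 (95% interval 0.32 to 2.24, limma adjusted p = 0.0575) and by 0.98 ± 0.38 for miR-222 (0.12 to 1.84, 0.0979). Neither passed, where 14.1% of 241 assays were called higher and 24.5% either way. On the GIL side of this contrast, run day and graft type cannot be told apart. miR-221 passed without syngeneic heart pool 1 (1.49, adjusted p = 0.0475) or allogeneic GIL pool 1 (1.48, 0.0379), and miR-222 without allogeneic heart pool 2 (1.24, 0.0389). Scaled to MammU6 the contrasts were 0.50 and 0.20 (adjusted p = 0.704 and 0.841), and scaled to snoRNA202 0.70 and 0.40 (0.443 and 0.641).

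**Figure D2:**
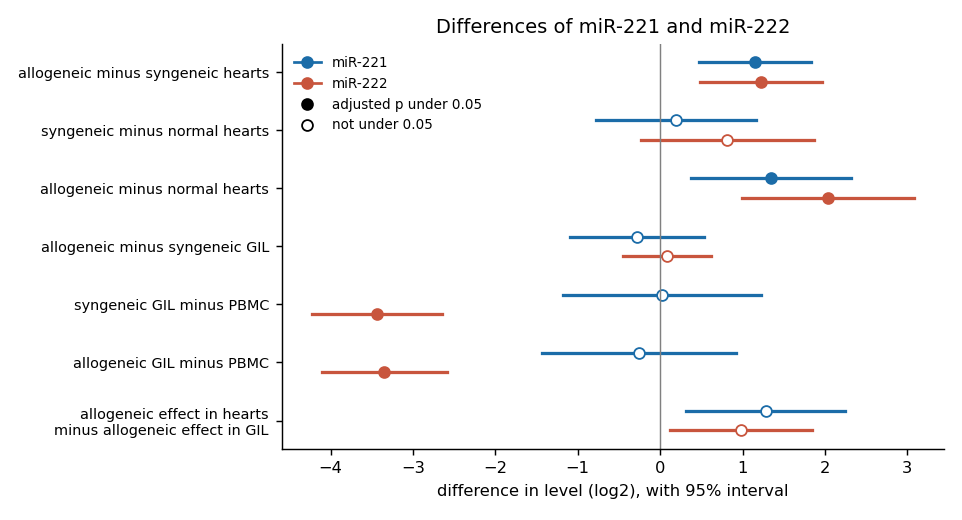
Differences in level of miR-221 and miR-222 in 7 comparisons (log2 units, horizontal lines are 95% intervals, filled points have a limma adjusted p under 0.05). Both members are called in the 2 comparisons of allogeneic hearts, and miR-222 alone in the 2 comparisons of GIL with PBMC.

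Against normal blood cells the pair came apart. In syngeneic GIL miR-222 was lower than in PBMC, with a difference of -3.43 ± 0.32 (95% interval -4.23 to -2.64, 10.8-fold lower, limma adjusted p = 4.52e-04). In allogeneic GIL its difference was -3.35 ± 0.30 (-4.11 to -2.59, 10.2-fold lower, limma adjusted p = 4.67e-04). All 6 GIL values, 2.74 to 3.16, lay far below the 6.41 of the PBMC array. miR-221 differed by 0.02 (-1.18 to 1.22, limma adjusted p = 0.985) in syngeneic and by -0.26 (-1.43 to 0.92, 0.653) in allogeneic GIL, and the PBMC value of 1.72 lay within the range of both groups. Calls of a lower level were common here, 31.9% of 229 assays in syngeneic and 35.8% of 212 in allogeneic GIL, and values below PBMC without overlap made up 52% and 57.5%. The median over all assays was -0.77 and -1.19, so miR-222 lay 2.67 and 2.16 below the median and miR-221 lay 0.79 and 0.93 above it. The PBMC side is 1 array with no spread of its own, assumed to vary like the GIL pools, and it was run on a day of its own, so run day and cell source cannot be told apart. The size of the miR-222 difference varied with the scaling, from -4.53 (MammU6) to -1.93 (quantile normalization) in syngeneic and from -3.62 to -1.70 under the same settings in allogeneic GIL, and in allogeneic GIL the call was lost when scaled to snoRNA202 (-1.99, adjusted p = 0.0610).

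In raw cycles, without any scaling, both members crossed later on every GIL array than on the PBMC array, and miR-222 was delayed by more. On the PBMC array miR-221 crossed the threshold at Ct 21.5 and miR-222 at 16.8. In syngeneic GIL miR-221 crossed at 23.1, 23.7 and 23.5 and miR-222 at 21.6, 23.0 and 21.9. In allogeneic GIL the values were 22.3, 23.4 and 27.0 for miR-221 and 21.0, 22.0 and 24.9 for miR-222. The lead of miR-222, 4.69 cycles in PBMC, was thus 0.68 to 2.10 cycles in GIL. This gap, the Ct of miR-221 minus that of miR-222, cancels input and reference on an array, but it is not a ratio of abundances, since the assays may amplify with different efficiency. With miR-221 as the reference, miR-222 differed from PBMC by -3.46 (95% interval -4.91 to -2.005, limma adjusted p = 0.00490) in syngeneic and by -3.09 (-4.52 to -1.66, 0.0107) in allogeneic GIL, a fit chosen after the gap of the PBMC array was seen. In those fits 23.1% and 13.7% of assays were called lower. Their differences are those of miR-222 less those of miR-221 given above, so they are not separate evidence.

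In whole hearts the gap was wider than in infiltrating cells. In the allogeneic heart pools it was 3.04, 2.55 and 3.59 cycles (3.06 ± 0.52, SD, n = 3), in the syngeneic pools 2.17, 3.40 and 3.41 (2.99 ± 0.71), and in normal hearts 2.37. In syngeneic GIL it was 1.46, 0.68 and 1.57 (1.24 ± 0.48) and in allogeneic GIL 1.29, 1.41 and 2.10 (1.60 ± 0.43). Allogeneic and syngeneic values overlapped in both tissues, with differences of 0.07 in hearts (exact permutation test, two-sided, p = 0.8) and 0.37 in GIL (exact p = 0.6), where 3 against 3 arrays cannot go below 0.1. The heart difference was -0.34 without syngeneic pool 1 and -0.20 without allogeneic pool 3. The 6 GIL arrays and the 6 heart graft arrays did not overlap. Their gaps differed by -1.61 cycles. Taken relative to miR-221 in the same way, 30.8% of 240 assays lay lower in all GIL than in all heart graft arrays. This comparison was chosen after the gaps were seen, and day, run day and cell source differ between its sides.

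**Figure D3:**
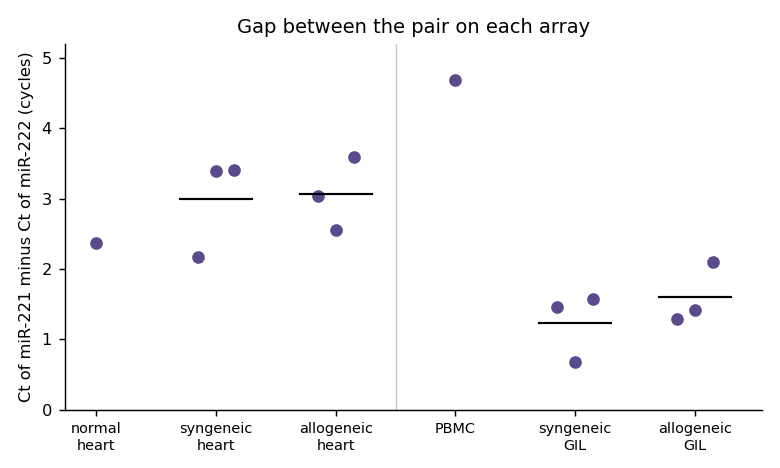
Ct of miR-221 minus Ct of miR-222 on each array, in cycles, with a bar at each mean of 3 pools. GIL lie between 0.68 and 2.10, heart grafts between 2.17 and 3.59, and the PBMC array at 4.69.

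Several microRNA groups shared the direction of miR-222 between GIL and PBMC. Of the 11 assays of miR-17-92 and its paralogues, 11 were lower in syngeneic GIL (median -2.40) and 10 in allogeneic GIL (median -1.59), with miR-92a at -3.03 and -2.10. Of 5 haematopoietic assays tested, 4 and 5 were lower (medians -2.65 and -1.85), among them miR-142-3p at -3.45 and -1.85 and miR-150, abundant in resting lymphocytes, at -2.97 and -2.46. The activated T cell list was mixed, with 3 of 8 higher and 1 lower in syngeneic GIL and 4 higher and 1 lower in allogeneic GIL. There miR-182 was at 2.63 and 5.59, while miR-21 was called lower in syngeneic GIL (-1.34) and miR-31 in allogeneic GIL (-1.675). The median of this list in syngeneic GIL was 1.02 and turned to -0.068 when scaled to MammU6. The medians of the miR-17-92 and haematopoietic lists kept their sign under 7 scalings. In the vascular wall list 4 of 5 were higher in each (medians 5.86 and 4.79), and 3 of 3 tested cardiac assays were higher in each. Of all assays, 28.8% were called higher in syngeneic and 22.2% in allogeneic GIL, and 31.9% and 35.8% were called lower. Both GIL comparisons share the PBMC array. Markers of graft tissue were present in the GIL preparations. The log2 summed level of the 6 cardiac markers was 3.79 to 4.47 in syngeneic and 5.18 to 6.45 in allogeneic GIL, against -3.67 in PBMC. On the PBMC array miR-133b, miR-208, miR-208b and miR-499 were not detected. miR-208b was detected on no GIL array either, and 3 of the 6 were detected on all arrays of each GIL group. Endothelial and fibroblast markers went the other way between the GIL groups. The 2 endothelial markers summed to 5.79 to 6.42 in syngeneic GIL, 4.55 to 5.315 in allogeneic GIL and 0.28 in PBMC. The 3 fibroblast markers summed to 4.43 to 4.71, 1.905 to 3.13 and -4.84 in the same order. The 2 smooth muscle markers, at 4.75 to 6.165 and 5.02 to 5.80, overlapped between the GIL groups. For the 4 leukocyte markers the sum was 5.23 to 6.05 in syngeneic GIL, 5.83 to 6.46 in allogeneic GIL and 8.53 in PBMC. The part of graft tissue in the lower miR-222 of GIL was not tested.

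**Figure D4:**
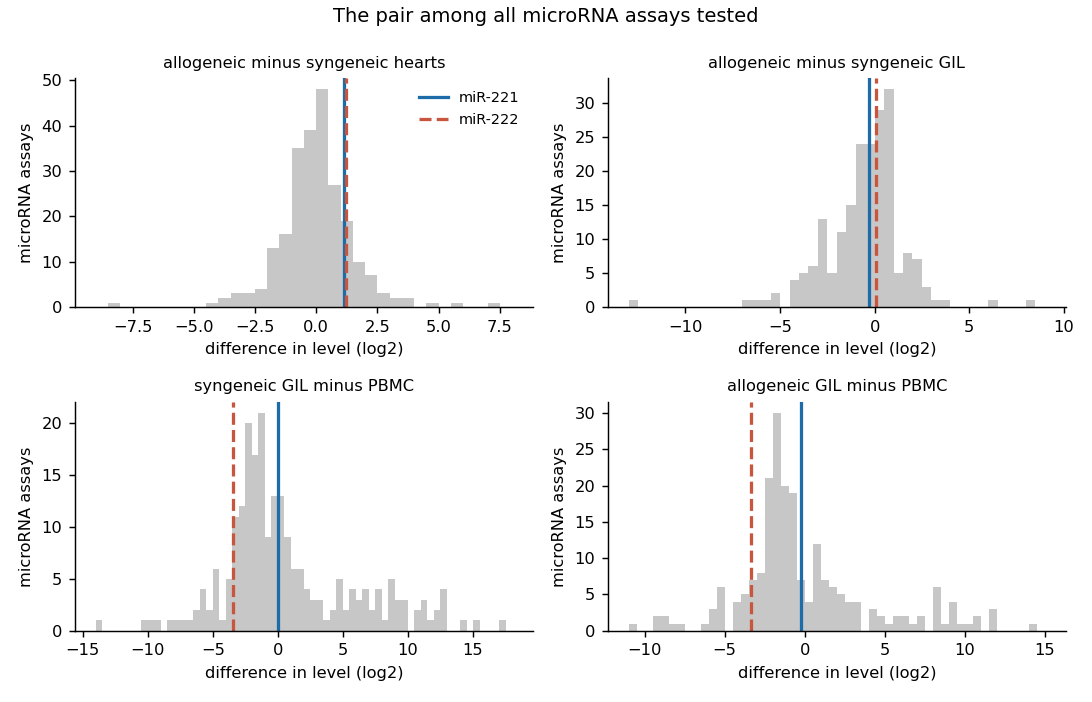
Histograms of the difference in level (log2 units) over all microRNA assays tested in 4 comparisons, with lines at miR-221 and miR-222. The lines lie together in the heart and GIL graft comparisons and apart in the comparisons with PBMC, where miR-222 is at -3.43 and -3.35.

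Ordered on the 14-array reference, the members ranked the tissues differently. For miR-221 the order was syngeneic GIL (1.70 ± 0.29, SD, n = 3), PBMC (1.68, 1 array), allogeneic GIL (1.44 ± 0.49), allogeneic hearts (0.57 ± 0.20), syngeneic hearts (-0.45 ± 0.38) and normal hearts (-0.63, 1 array). Neighbours within the lymphocyte samples were not called different (adjusted p = 0.980 and 0.627, where 69.4% and 65.1% of assays were called). Syngeneic and normal hearts, which also differed in strain and run day, were not called different either (adjusted p = 0.830, where 10.7% were called). The steps from allogeneic GIL to allogeneic hearts (0.87, limma adjusted p = 0.0463, where 38.5% of 231 assays were called) and on to syngeneic hearts (1.02, 0.0372, 23.9% of 238) were called. For miR-222 the order was PBMC (6.38), allogeneic hearts (3.63 ± 0.45), allogeneic GIL (3.04 ± 0.085), syngeneic GIL (2.94 ± 0.20), syngeneic hearts (2.55 ± 0.35) and normal hearts (1.74). Of its steps only that from PBMC to allogeneic hearts was called (2.74, limma adjusted p = 1.74e-04, where 57.4% of 244 assays were), and the other 4 steps had adjusted p of 0.119 to 0.765. In those between allogeneic and syngeneic GIL and between syngeneic GIL and syngeneic hearts, 49.8% and 50.4% of assays were called.

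The members also differed in how lymphocytes compared with hearts. Syngeneic GIL held 2.15 ± 0.30 log2 units more miR-221 than syngeneic hearts (95% interval 1.47 to 2.83, limma adjusted p = 2.95e-04, with 24.8% of 234 assays called higher), while miR-222 differed by 0.39 (-0.21 to 0.99, 0.260). Allogeneic GIL differed from allogeneic hearts by 0.87 in miR-221 (0.19 to 1.55, 0.0463) and by -0.59 in miR-222 (-1.19 to 0.01, limma adjusted p = 0.119). The PBMC array exceeded the normal heart array in both, by 2.31 in miR-221 (1.13 to 3.50, limma adjusted p = 0.00391) and by 4.64 in miR-222 (3.58 to 5.69, 2.01e-05), with 25.9% of 247 assays called higher. That comparison sets 1 array against 1, so its intervals and p rest wholly on the spread of the other groups and carry no replicate check of their own. The PBMC and the normal hearts also came from different strains. GIL and hearts were taken on different days, and the cards of hearts and lymphocytes were run on different days.

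The levels of the pair were then set against each other and against all other assays across the arrays. The Pearson correlation of their levels was 0.42 over 14 arrays, 0.72 over the 7 heart arrays, 0.08 over the 7 GIL and PBMC arrays and -0.31 over the 6 GIL arrays. The points share cards, pools and the reference, and these values are descriptions. Over the 14 arrays, miR-222 stood 36th of 132 assays in likeness to miR-221, and miR-221 stood 52nd in likeness to miR-222. The 5 assays most like miR-221 were miR-324-5p (r = 0.85), miR-197 (0.80), miR-210 (0.80), miR-196b (0.78) and miR-125a-3p (0.76). The likeness of miR-324-5p was 0.91 within hearts (7th of 132) and 0.13 within GIL and PBMC (44th). For miR-222 they were miR-19b (0.90), miR-16 (0.88), miR-20a (0.86), miR-19a (0.86) and miR-340-5p (0.85), and for miR-19b the value was 0.95 within hearts (4th of 132) and 0.88 within GIL and PBMC (30th). Of the 7 GIL and PBMC arrays, the PBMC array was highest for both miR-222 and miR-19b. There miR-19b was at 7.04, against 4.82 to 5.97 in GIL, and its likeness over GIL alone is not given here. miR-19b, miR-20a and miR-19a are members of the miR-17-92 cluster. No assay stood on both lists.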

How the data were processed

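RNA of 14 pools was reverse transcribed and preamplified with Megaplex primers and run on TaqMan cards, per the labels' protocols. The authors exported the Ct values with SDS 2.4, per the submitters' processing notes. The deposited delta Ct is a log2 value, the Ct minus that of snoRNA202, and their relative quantity is a deposited ratio against the normal array of that table, per the file headers. Baseline and threshold settings are not given in the sources used here. Ct values undetermined or at 35 or later were set to 35, and 1 well with a sample name of no array was left out. Models were run in R 4.3.3 with limma 3.58.1 (lmFit, eBayes, two-sided, 3 groups per table; 14 arrays together for comparisons across tissues). An assay was tested where detected on every array of at least 1 compared group, and p-values were Benjamini-Hochberg adjusted over all assays tested. Labels do not say whether pools came from separate operations, so p-values measure the spread between these pools. The number of arrays limits the precision. Same-numbered pools were not paired by the labels. The members and lists were chosen with earlier results of these data known. Named assays were, by rule, the 5 most correlated with each member and up to 4 list members of smallest p per comparison. Alternatives covered scaling, detection limit, filter, blocks and leaving out each array. Fits outside the plan are described as chosen after values were seen.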

Additional observations from a re-analysis of the deposited data

How the results depend on the processing

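In allogeneic against syngeneic hearts the difference kept its direction under 22 of 22 alternatives for both members, between 0.90 and 1.37 for miR-221 (called under 14) and 0.96 and 1.54 for miR-222 (called under 13). The calls were lost when scaled to MammU6 (1.04 and 1.10), without the detection filter (1.15 and 1.22, limma adjusted p = 0.0635 and 0.0643, with 375 assays tested in place of 238), with run day as a fixed block (1.00 and 1.54) and, for miR-221, when scaled to the median (0.90). Leaving out single arrays gave 1.02 to 1.37 and 1.03 to 1.48. For allogeneic against normal hearts miR-221 was not called under MammU6 (1.57), median scaling (1.14) or no filter (1.35), and ranged from 1.21 to 1.505 over single arrays left out. For syngeneic against normal hearts it ranged from -0.026 to 0.35.

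The replicate block was fitted without the normal array and left 2 residual degrees of freedom. The hearts difference was then 1.03 for miR-221 (limma adjusted p = 0.0518) and 1.10 for miR-222 (0.0970). Over all assays 77 were called in the main fit, 87 without the normal array and 43 with the block added. The deviations of same-numbered pools correlated at -0.04, -0.29 and 0.12 in hearts and at 0.19, 0.23 and -0.16 in GIL. Those of differently numbered pools ran from -0.37 to 0.36 and from -0.30 to 0.09. The labels do not pair the pools, and with 3 pools per group these values cannot decide it. The block could not be fitted to the contrasts with a normal array. Run day as a fixed block could be fitted only between the heart grafts, since no other run day held both groups compared. As a random block it changed no call of the pair. The correlation that fit estimated within a run day was near 0 (-0.006 in hearts, -0.038 in GIL and PBMC, 0.034 over all arrays). It was therefore a weak check, and it could not separate run day from graft type in GIL.

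In GIL the miR-221 difference between graft types, -0.28, changed sign when scaled to MammU6 (0.54), snoRNA202 (0.61), snoRNA135 with snoRNA202 (0.37), by quantiles (4.9e-05) and in the deposited delta Ct (0.61), and ranged from -0.48 to 0.093 over single arrays left out. It was never called. That of miR-222 was -0.048 with a detection limit of Ct 32 and -0.072 to 0.23 over single arrays. miR-221 against PBMC was -1.07 (MammU6) and -0.30 (limit 40) in syngeneic GIL, -0.10 to 0.072 over single arrays. In allogeneic GIL it was 1.11 (snoRNA202), 0.73 (snoRNA135 with snoRNA202), 0.20 (median), 0.44 (quantiles) and 1.11 (deposited), and -0.46 to 0.14 over single arrays. Relative to the median of all assays, miR-221 in GIL against PBMC was at 0.79 (syngeneic) and 0.93 (allogeneic) in the main fit. There miR-222 was at -2.67 and -2.16. A scaling that shifts a whole array cancels in these values, so only quantile normalization and the deposited delta Ct could change them. With quantile normalization miR-221 was at 1.38 and 1.31 and miR-222 at -0.99 and -0.83. In the deposited delta Ct miR-221 was at 1.04 and 1.22 and miR-222 at -2.42 and -1.87. miR-222 in allogeneic GIL against PBMC was -1.99 and not called when scaled to snoRNA202 or in the deposited delta Ct.

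The contrast of hearts with GIL for miR-221 passed with a detection limit of 32 (1.42), with assays detected on every array (1.28), with an intensity trend (1.28), without wells flagged by the software (1.32) and with each table's own reference (1.43). Over single arrays left out it ranged from 0.95 to 1.49, and for miR-222 from 0.78 to 1.24. Over all 27 alternatives it ran from 0.50 to 1.49 (adjusted p to 0.704) for miR-221 and 0.20 to 1.24 (to 0.841) for miR-222, lowest for both under MammU6. The hearts gap ranged from -0.34 to 0.32 over single arrays. The cause of these changes was not tested. The 41 to 36 split of calls in hearts was 24 to 56 with median scaling and 42 to 23 with snoRNA202, and the 25 to 48 split in GIL was 34 to 20 with MammU6 and 38 to 10 with snoRNA202.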
